A study of Mus musculus with 6 samples.

Results

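The Notch pathway genes described here are 3 receptors (Notch1, Notch2 and Notch3), 3 ligands (Dll1, Dll3 and Jag1), 3 target genes that encode transcriptional repressors (Hes1, Hes5 and Hey1) and the DNA-binding protein of the pathway, Rbpj. They were taken as the probes whose symbol in the array's annotation was 1 of these names. All 10 genes were found, each with 1 probe, among 15063 genes on the array. All 10 probes had a value on every array and entered the test. The values took no part in the choice by this rule, but the list was drawn up with earlier results of the same arrays known.

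The study asked how loss of the imprinted gene Mest, also called Peg1, changes gene expression in the embryonic mouse brain. RNA from 6 single cortices of mutant embryos (numbered 3, 5, 6, 1, 4 and 7) was hybridised against RNA from single cortices of wild-type embryos at stage E12.5 of mouse gestation, on 6 two-colour oligonucleotide arrays. The mutants inherited a LacZ-targeted Mest allele without exons 3 to 8 from their fathers, and their mothers were wild type. Mest is expressed from the paternal allele, so the intact maternal copy is normally silent. The allele is constitutive, so every cell type of the embryo carried it. The wild-type cortices were numbered 2, 8 and 9, and each served on 2 arrays. The wild-type sample of the mutant 3 array is named 1 in its own label, a number that the study's list lacks, and it was taken to be wild type 2. Mutants 3, 5 and 6 were labelled with Cy5, against wild types 2, 8 and 9 in Cy3. Mutants 1, 4 and 7 were labelled with Cy3, against wild types 2, 8 and 9 in Cy5. Sex, litter and strain were not used here.

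Every value below is a log2 ratio of mutant over wild type relative to the median probe of its array. The deposited values were taken as the Cy5 signal over the Cy3 signal on the log2 scale, and no source used here states that direction. With this reading the Mest probe was below 0 on all 6 arrays. Its ratios were -1.36, -1.78 and -1.39 for mutants 3, 5 and 6 and -1.50, -2.07 and -1.44 for mutants 1, 4 and 7. The fitted Mest ratio was -1.59 with a standard error of 0.13, which is 0.332 of the wild-type signal. The unadjusted p of Mest in limma was 3.44e-05 and its adjusted p was 0.601. Where the Mest probe lies relative to the removed exons was not used here. Of 21766 probes, 16422 to 19564 gave a value per array. No probe on the array passed the adjusted threshold of 0.05 for genotype in limma. Ratios hold no level, so neither the tissue label nor the order of abundance of the genes could be checked, and the number of arrays limits the precision. In whole cortex, fewer cells of a type and less RNA per cell cannot be told apart.

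Notch receptors are single-pass membrane proteins that are activated by Delta and Jagged ligands on a neighbouring cell. Ligand binding leads to cleavage of the receptor, and its intracellular domain travels to the nucleus, where it joins Rbpj on DNA and turns a repressed target into an active one. In the embryonic cortex the targets Hes1 and Hes5 repress proneural genes, and radial glial progenitors are thereby kept as progenitors while their Delta-expressing neighbours differentiate.

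Rbpj recognises the letters TGGGAA, often within the longer form GTGGGAA, and Hes proteins recognise the N-box, CACNAG. These motifs were searched on both strands of promoter windows of 300 bases, from 250 bases before to 50 after a start site as the RefSeq table of build GRCm38.p6 gives it. That site need not be the outermost start of the gene, and the windows of Hes5 and Rbpj shown here lie inside the span annotated for their genes. The table held 10 windows for 8 of the 10 members, all but Hes1 and Hey1. TGGGAA was found in 3 windows of 2 members, Hes5 and Rbpj, and in 25.6% of all 32851 windows in the table. GTGGGAA was found in the Hes5 window alone among the members and in 6.38% of all windows. CACNAG was found in 4 windows, those of Notch1, Notch2, Notch3 and Dll1, and in 42.5% of all windows. The window of Hes5, the direct target, and 1 of the windows of Rbpj, the factor itself, are shown because they hold the motif in both orientations, which the capitals mark. They are given 5′ to 3′ on the plus strand, at chr4:154960673-154960972 for Hes5 and chr5:53590096-53590395 for Rbpj.
Hes5: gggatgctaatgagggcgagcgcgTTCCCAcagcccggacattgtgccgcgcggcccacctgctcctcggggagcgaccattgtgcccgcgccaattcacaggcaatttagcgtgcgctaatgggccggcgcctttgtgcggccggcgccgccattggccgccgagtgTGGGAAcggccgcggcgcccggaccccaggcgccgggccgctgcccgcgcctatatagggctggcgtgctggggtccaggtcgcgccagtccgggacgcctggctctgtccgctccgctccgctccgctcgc
Rbpj: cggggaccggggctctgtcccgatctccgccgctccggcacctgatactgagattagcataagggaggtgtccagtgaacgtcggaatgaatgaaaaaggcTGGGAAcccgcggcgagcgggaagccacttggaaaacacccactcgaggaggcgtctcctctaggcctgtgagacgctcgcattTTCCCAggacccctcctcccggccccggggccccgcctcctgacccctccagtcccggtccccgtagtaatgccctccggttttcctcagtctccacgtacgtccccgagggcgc
In the Hes5 window the motif began 226 bases before that start site in the reverse orientation and 82 bases before it in the forward orientation. In the Rbpj window it began 149 bases before its start site in the forward and 65 bases before it in the reverse orientation. A match describes the letters and is no evidence of binding.

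None of the 10 Notch pathway genes differed between mutant and wild-type cortices beyond the spread between arrays. The fitted ratio was above 0 for 6 genes (Notch1, Notch2, Notch3, Dll3, Jag1 and Rbpj) and below 0 for 4 (Dll1, Hes1, Hes5 and Hey1). Of all probes tested, 51.3% were above 0. Among the members the lowest was -0.18 for Hey1 and the highest 0.11 for Notch1. The median of the members was 0.041, beside 0.0069 for all 17476 probes tested. In limma, 0 of 10 members passed the adjusted threshold, beside 0% of all probes, and 0 of 10 had an unadjusted p under 0.05, beside 3.93% of all probes. The count at the unadjusted threshold was also 0 of 10 when limma's moderation of the variance was left out. The 95% intervals of the members reached at most between 1.21-fold and 1.42-fold in either direction, so that larger differences lie outside them. No member had the same sign on all 6 arrays, which 5.59% of the 13531 probes with 6 values did.

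All 3 receptors had fitted ratios above 0, and none passed the test. Notch1, a receptor of cortical progenitors, had ratios of -0.058, 0.092 and -0.073 for mutants 3, 5 and 6 and of 0.28, 0.15 and 0.25 for mutants 1, 4 and 7. The 3 mutants labelled with Cy3 were all higher than the 3 labelled with Cy5. The fit put Notch1 at 0.11 ± 0.077 (SE, n = 6 arrays), a fold of 1.08 with a 95% interval from 0.941 to 1.23, and the adjusted p in limma was 0.901. Notch2, another receptor of the same family, had ratios of 0.14, -0.033 and -0.15 for mutants 3, 5 and 6 and of 0.14, 0.15 and 0.25 for mutants 1, 4 and 7. Again the Cy3-labelled mutants were the higher ones, with mutant 3 nearly level with the lowest of them. Its fitted ratio was 0.083 ± 0.083 (SE, n = 6), a fold of 1.06 with an interval from 0.915 to 1.22 and an adjusted p in limma of 0.902. Notch3, known in vessels for its role in smooth muscle cells and pericytes, had ratios of 0.34, -0.26 and 0.12 for mutants 3, 5 and 6 and of 0.15, -0.14 and 0.018 for mutants 1, 4 and 7. The 2 mutants set against wild type 8 were the only ones below 0 for Notch3. The fitted ratio of Notch3 was 0.037 ± 0.11 (SE, n = 6), with a fold between 0.846 and 1.24 in the 95% interval and an adjusted p in limma of 0.952. Averaged over the 3 receptors, the ratio was above 0 on 4 of 6 arrays, with a mean of 0.075 ± 0.11 (SD, n = 6).

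**Figure D1:**
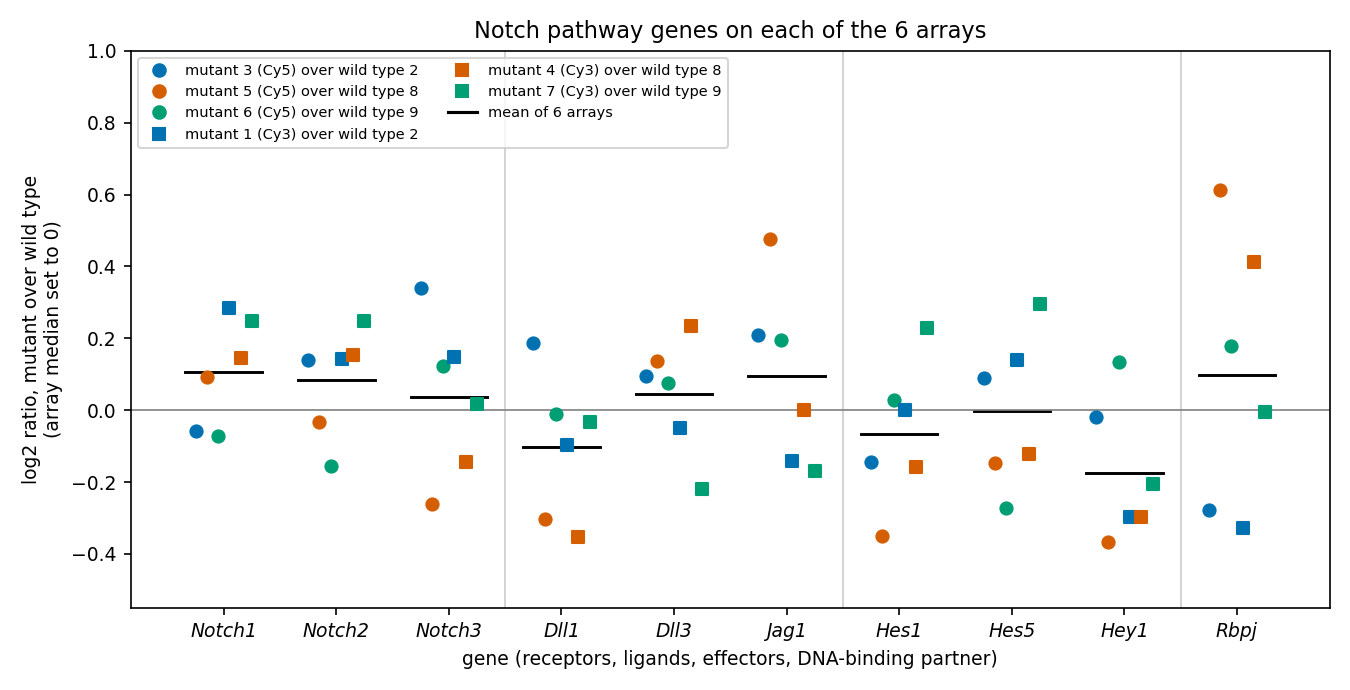
Log2 ratio of mutant over wild type (vertical axis, relative to the median probe of each array) for the 10 Notch pathway genes, 1 point per array. Colour marks the wild type used and marker shape the dye of the mutant. Of the 60 points 30 lie above 0, 29 below it and 1 at 0, between -0.37 and 0.61.

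The ligands did not share a direction. Dll1, the Delta ligand of cells that are turning into neurons, had ratios of 0.19, -0.30 and -0.012 for mutants 3, 5 and 6 and of -0.096, -0.35 and -0.034 for mutants 1, 4 and 7. It was below 0 on 5 of 6 arrays, with the 2 lowest values in the mutants set against wild type 8. Its fitted ratio was -0.10 ± 0.10 (SE, n = 6), a fold of 0.932 with an interval from 0.779 to 1.12, at an adjusted p in limma of 0.902. Dll3, a divergent Delta protein that in mouse acts mainly inside its own cell and does not activate Notch on neighbours, had ratios of 0.096, 0.14 and 0.075 for mutants 3, 5 and 6. For mutants 1, 4 and 7 the Dll3 ratios were -0.051, 0.23 and -0.22. Dll3 lay on both sides of 0 in the Cy3-labelled mutants only, and its fit was 0.045 ± 0.093 (SE, n = 6), between 0.877-fold and 1.21-fold in the 95% interval, with an adjusted p in limma of 0.936. Jag1, the ligand of the Jagged class, had ratios of 0.21, 0.48 and 0.20 for mutants 3, 5 and 6 and of -0.14, 0 and -0.17 for mutants 1, 4 and 7. All Cy5-labelled mutants were above 0 for Jag1 and no Cy3-labelled mutant was. With both orientations weighted equally the Jag1 ratio was 0.095 ± 0.082 (SE, n = 6), a fold of 1.07 with an interval from 0.925 to 1.23, and the adjusted p in limma was 0.901. The mean over the 3 ligands was 0.013 ± 0.12 (SD, n = 6), being 0.12 in the Cy5-labelled and -0.093 in the Cy3-labelled mutants.

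All 3 target genes had fitted ratios below 0, with Hes5 at -0.0026, and none passed the test. Hes1, which represses proneural genes and its own promoter, had ratios of -0.14, -0.35 and 0.028 for mutants 3, 5 and 6 and of 0.001, -0.16 and 0.23 for mutants 1, 4 and 7. The mutants set against wild type 9 were the 2 highest. Its fit was -0.066 ± 0.096 (SE, n = 6), a fold of 0.955 with an interval from 0.809 to 1.13 and an adjusted p in limma of 0.91. Hes5, the target whose promoter is shown above, had ratios of 0.090, -0.15 and -0.27 for mutants 3, 5 and 6 and of 0.14, -0.12 and 0.29 for mutants 1, 4 and 7. Its 3 positive and 3 negative values balanced. The fitted Hes5 ratio was -0.0026 ± 0.11 (SE, n = 6), a fold of 0.998 with an interval from 0.829 to 1.20, at an adjusted p in limma of 0.997. Hey1, a Hes-related repressor downstream of Notch in progenitors and vessels, had ratios of -0.020, -0.37 and 0.13 for mutants 3, 5 and 6 and of -0.30, -0.30 and -0.21 for mutants 1, 4 and 7. Hey1 was below 0 on 5 of 6 arrays, mutant 6 being the exception. Its fit was -0.18 ± 0.099 (SE, n = 6), a fold of 0.886 with an interval from 0.745 to 1.05. Among the members Hey1 had the smallest unadjusted p in limma, 0.133, and its adjusted p was 0.901. The mean of the 3 target genes was below 0 on 5 of 6 arrays, at -0.081 ± 0.14 (SD, n = 6). It was lowest in the mutants set against wild type 8, at -0.29 and -0.19. Of 6 tested target genes outside the members, 4 had a fitted ratio above 0.

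Rbpj, the factor that all receptors act through, varied most. Its ratios were -0.28, 0.61 and 0.18 for mutants 3, 5 and 6 and -0.33, 0.41 and -0.006 for mutants 1, 4 and 7. Both mutants set against wild type 2 were low and both set against wild type 8 were high. The fit for Rbpj was 0.099 ± 0.16 (SE, n = 6), a fold of 1.07 with an interval from 0.81 to 1.42 and an adjusted p in limma of 0.917. Its SD over the arrays was 0.37, and the other members had SDs between 0.15 and 0.25. The median SD of the 13531 probes with 6 values was 0.31, and 9 of 10 members were below it.

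**Figure D2:**
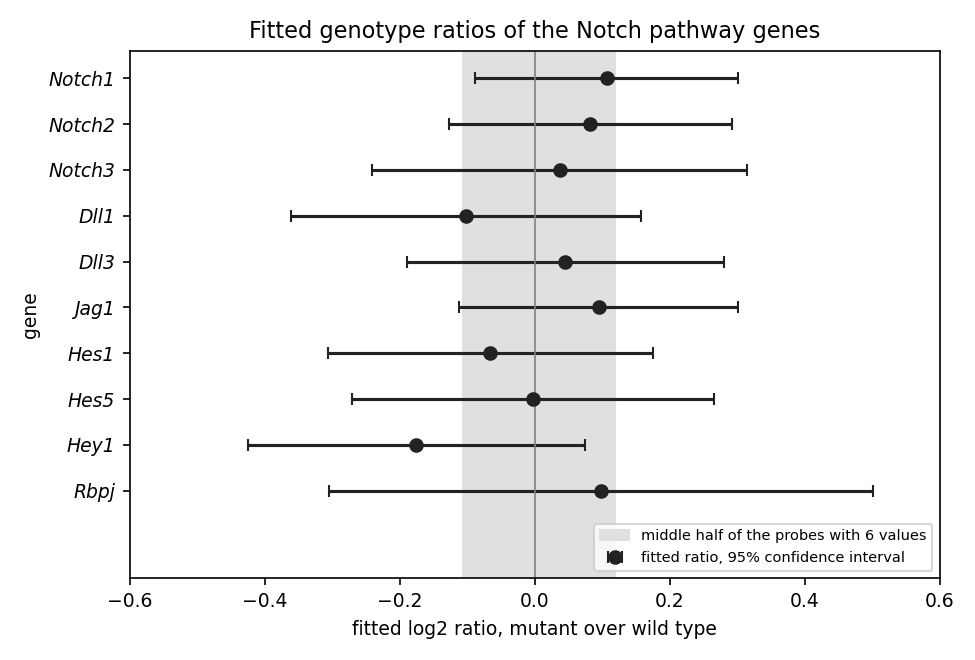
Fitted log2 ratio of mutant over wild type for each member (horizontal axis) with its 95% interval as a bar, beside a grey band from the lower to the upper quartile of the probes with 6 values, -0.11 to 0.12. Every bar crosses 0, and Hey1 and Rbpj have the lowest fit and the widest bar.

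Labelling orientation was read from the dye coefficient, the mean ratio in the Cy5-labelled mutants minus that in the Cy3-labelled ones. Its median size was 0.18 over the members, beside 0.35 over all probes tested. The orientations did not overlap for 3 of 10 members (Notch1, Notch2 and Jag1), beside 25% of the probes with 6 values. For Jag1 the mean was 0.29 in the Cy5-labelled and -0.10 in the Cy3-labelled mutants, a difference of 0.40 ± 0.13 (SE). For Notch1 it was -0.013 in the Cy5-labelled and 0.23 in the Cy3-labelled mutants, a difference of -0.24 ± 0.12 (SE). For Notch2 it was -0.015 in the Cy5-labelled and 0.18 in the Cy3-labelled mutants, a difference of -0.20 ± 0.13 (SE). The Jag1 difference had an unadjusted p of 0.0241 and an adjusted p of 0.198 in limma, the smallest among the members. The dye term passed the adjusted threshold in 0 of 10 members and in 0.269% of all probes. The orientations held different mutant embryos against the same 3 wild types, so the dye term was tested against the spread between embryos.

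Arrays that shared a wild-type cortex were set side by side, a comparison added after the values were seen. The ratios of Rbpj averaged -0.30 in the mutants set against wild type 2, 0.51 against wild type 8 and 0.086 against wild type 9. The difference between the pairs of wild types 8 and 2 was 0.81 ± 0.14 (SE), and the test over all 3 pairs gave an unadjusted p of 0.0159 and an adjusted p of 0.589 in limma. Rbpj was the only member with an unadjusted p under 0.05 there, 1 of 10 beside 8.27% of the probes with 6 values, and no member passed the adjusted threshold, beside 0% of those probes. Notch3 had the next widest spread among the pairs, with means of 0.24, -0.20 and 0.070 for wild types 2, 8 and 9. The pairs of Notch1 were the closest together, at 0.11, 0.12 and 0.088. Notch1, Notch2, Jag1 and Hey1 had the same sign in all 3 pairs, which makes 4 of 10 members beside 29.2% of the probes with 6 values. The median range among the 3 pairs was 0.28 for the members and 0.40 for those probes. Each wild type was a single embryo, and its part in these pair values was not tested apart from that of the 2 mutants hybridised with it. The 2 arrays of wild type 8 had the deposited medians largest in size before centring, 0.76 for mutant 5 and -0.585 for mutant 4. On the other arrays they lay between -0.004 and 0.28. The mutant 5 array also had the fewest values, 16422, and the largest SD of centred ratios, 1.53, beside 0.89 for mutant 4. The part of these array differences in the pair values was not tested.

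**Figure D3:**
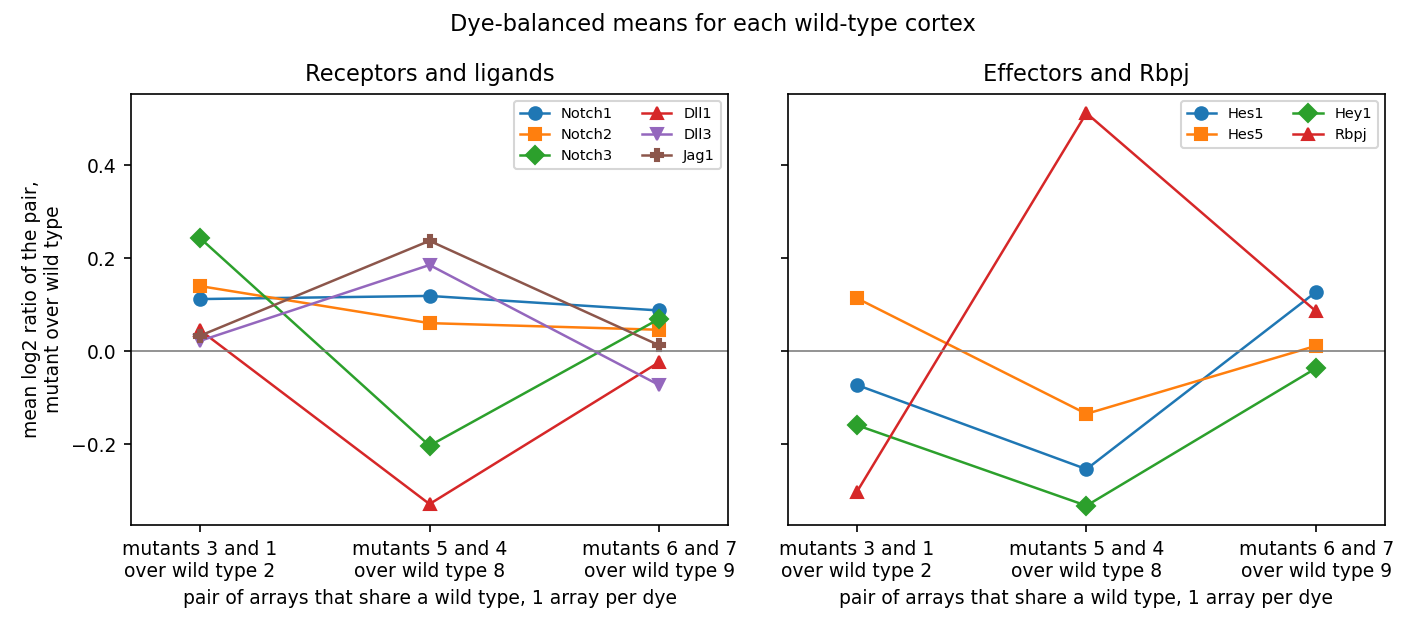
Mean log2 ratio of the 2 mutants set against wild type 2, 8 or 9 (vertical axis), with lines that join the 3 means of a gene. Rbpj runs from -0.30 to 0.51 and 0.086, and Notch1 stays between 0.088 and 0.12.

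The other genes of the pathway were read from a list of 69 genes that includes the members. Of the 49 listed genes on the array that are not members, 45 were tested, with 46 probes. The fitted ratio was above 0 for 29 of these probes and below 0 for 17, beside 51.3% of all probes tested above 0. The median of the 46 probes was 0.066, beside 0.0069 for all probes tested. None passed the adjusted threshold in limma, and 0 of 46 had an unadjusted p under 0.05, beside the 3.93% given above. Mib2, Aph1a, Dtx1 and Cir1 had too few values for the test, and 10 listed genes were not analysed here. Counted by role with the members included, the ratio was above 0 for 4 of 4 receptors, 6 of 7 ligands, 4 of 6 receptor-modifying enzymes, 3 of 5 cleavage enzymes and 5 of 6 cytoplasmic regulators. It was above 0 for 1 of 2 genes of ligand endocytosis, 3 of 7 proteins of the nuclear complex, 5 of 10 co-repressor probes and 4 of 9 target genes.

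Among the listed genes that are not members, the smallest p-values on the upper side belonged to Adam10, Lfng, Fbxw7, Mib1 and Spen. Adam10, the protease that sheds the ligand-bound receptor, had ratios of -0.038, 0.43 and 0.32 for mutants 3, 5 and 6 and of -0.065, 0.29 and 0.26 for mutants 1, 4 and 7. Only the 2 mutants set against wild type 2 were below 0 for Adam10, and its fit was 0.20 ± 0.10 (SE, n = 6). Lfng, the glycosyltransferase that alters the choice of ligand, had ratios of 2.57 and 2.98 for mutants 3 and 6 in Cy5 and of -0.74, -2.49 and -1.38 for mutants 1, 4 and 7 in Cy3. The sign of Lfng followed the dye on all 5 arrays with a value, with a dye coefficient of 4.19 and a dye p of 0.000948, 0.0826 after adjustment in limma. Its genotype fit was 0.56 ± 0.32 (SE, n = 5). Fbxw7, which targets the intracellular domain for degradation, was fitted at 0.30 ± 0.18 (SE, n = 6), and Mib1, the ubiquitin ligase that lets ligands be taken up, at 0.41 ± 0.25 (SE, n = 5). The co-repressor Spen was at 0.20 ± 0.15 (SE).

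On the lower side the smallest p-values among the genes that are not members belonged to Kat2b, Ctbp1, Kat2a, Hes7 and Tle4. Kat2b, an acetyltransferase of the activated complex, had ratios of -0.41, -0.20 and 0.016 for mutants 3, 5 and 6 and of -0.18, -0.39 and -0.26 for mutants 1, 4 and 7. It was below 0 on 5 of 6 arrays, and its fit of -0.24 ± 0.097 (SE, n = 6) had the smallest unadjusted p of the list in limma, 0.0566. Ctbp1, a co-repressor, was the only listed gene with the same sign on all 6 arrays, at -0.105, -0.018 and -0.15 for mutants 3, 5 and 6 and -0.16, -0.19 and -0.33 for mutants 1, 4 and 7. Its fit was -0.16 ± 0.074 (SE, n = 6) with an unadjusted p of 0.0825 in limma. Kat2a, a related acetyltransferase, was at -0.19 ± 0.098 (SE). Hes7, known for the segmentation clock of the somites, was at -0.28 ± 0.16 (SE, n = 6). Tle4, a co-repressor of the Groucho family, had 2 probes that disagreed, at -1.003 ± 0.74 and 0.11 ± 0.12 (SE). All of the 10 genes named on both sides had an adjusted p of 0.901 in limma.

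**Figure D4:**
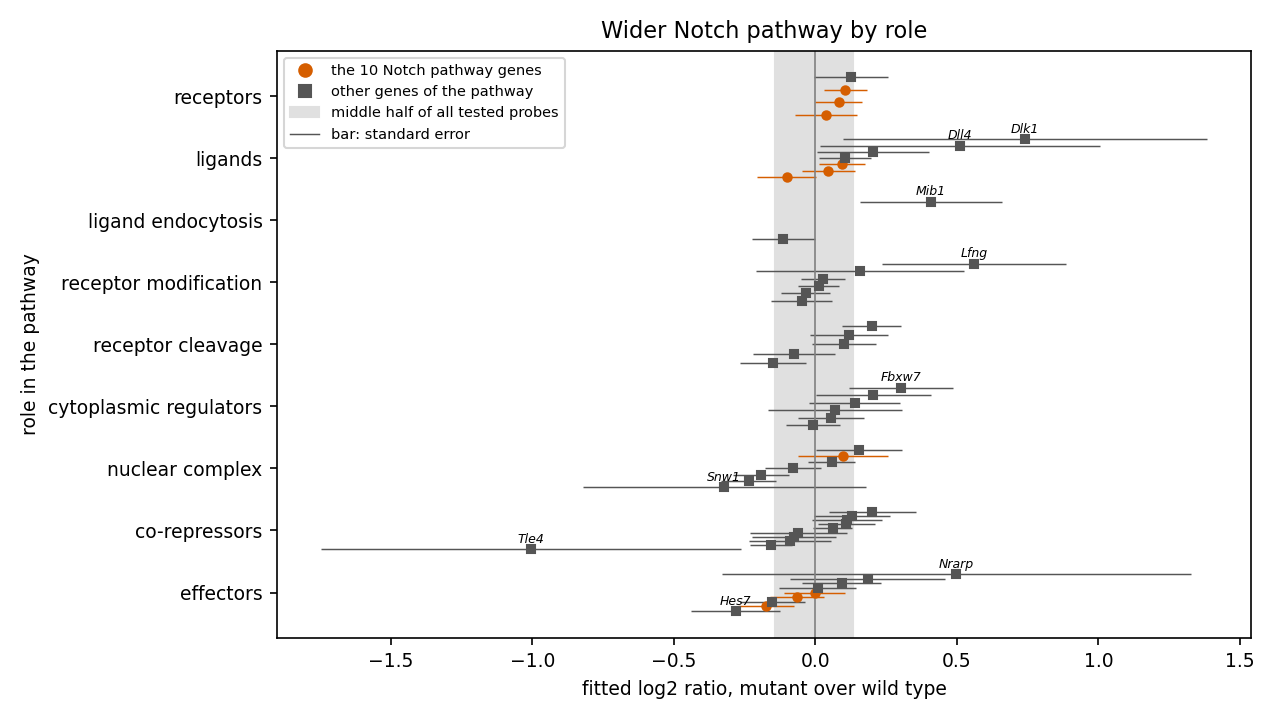
Fitted log2 ratio of mutant over wild type with its SE (horizontal axis) for the tested probes of the wider Notch list, ordered by role, members as orange circles and other genes as grey squares. The grey band runs from the lower to the upper quartile of all probes tested, -0.14 to 0.13, and the fits run from -1.003 for a Tle4 probe to 0.74 for Dlk1.

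Other listed genes are named here after their values were seen, for their differences between the wild-type pairs or between arrays. Dll4, the endothelial Delta ligand, averaged -0.34 in the pair of wild type 2, 2.06 in that of wild type 8 and -0.18 in that of wild type 9. The test over the pairs gave Dll4 an unadjusted p of 0.00488 in limma. Numb, which antagonises Notch in dividing progenitors, had pair means of -0.24, 0.56 and 0.096, with a p of 0.0258 in the same limma test. Itch, a ubiquitin ligase of Notch, had pair means of -0.21, 0.77 and 0.058, and Ncstn, a subunit of the cleaving gamma-secretase, had -0.18, 0.46 and 0.080. All 4 were, like Rbpj, highest against wild type 8, and the deacetylase Hdac2 was lowest there, with pair means of 0.14, -0.49 and 0.085. These were the 5 of 42 other listed probes with 6 values that had an unadjusted p under 0.05 in the pair test, beside 8.27% of all probes with 6 values, and each had an adjusted p of 0.589. The arrays of wild type 8 were those with the medians largest in size before centring, as given above. Nrarp, a target that feeds back on the receptor, ranged from -1.99 to 3.67 over the arrays, with a fit of 0.50 ± 0.83 (SE, n = 6).

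Genes of the cell states that Notch acts on, and of other cells a dissected cortex can hold, were measured in the same fit. None of these probes passed the adjusted threshold in limma. Of all probes tested, 51.3% had a fitted ratio above 0. The radial glia list had 9 of 15 probes above 0 and a median of 0.038, with Hmga2 at 0.36 (unadjusted p of 0.0498 in limma). The probes of Slc1a3 were at 0.23, 0.20 and 0.92. Pax6 and Fabp7 are named after their values were seen. The Pax6 probes disagreed, at 0.13 and -0.036, and Fabp7 was the lowest of the list at -0.20. The list of young neurons had 11 of 12 probes, from 10 genes, below 0 and a median of -0.079, with Map2 at -0.19 and Tbr1 at -0.13. Several of these probes belonged to Myt1l, named after its values were seen, at -0.039, -0.12 and -1.14. The mean of the list ranged from -0.63 to 0.29 over the arrays. It was lowest in mutant 3, where the Myt1l ratios were -0.20, -1.58 and -4.80. Of the 4 tested proneural genes, the direct targets of Hes repression, 2 were above 0. Neurog1 was at 0.26 ± 0.20 (SE, n = 5) and Neurod4 at -0.40 ± 0.36 (SE, n = 6). Neurog1 was 1.03 in mutant 3 and between -0.53 and 0.18 on its other arrays. Neurod4 was -2.04 in mutant 7 and between -0.26 and 0.099 on its other arrays. The endothelial list, which matters for Dll4 and Hey1, had 6 of 12 genes above 0, with Esam at -0.43 and Kdr at -0.21, and array means from -0.35 to 0.20. The mural list, which matters for Notch3, had 5 of 7 genes above 0, with Tagln at 0.46 (unadjusted p of 0.0345 in limma) and Acta2 at 0.27, and array means from -0.15 to 0.35. The ventral telencephalon list had 6 of 11 probes above 0, with Dlx5 at 0.27 and Isl1 at -0.17. The meninges had 5 of 9, with Col3a1 at 0.060 and Col1a2 at 0.056, and the choroid plexus had 2 of 7, with Ttr at -0.34. Kl of the choroid plexus had 2 probes that disagreed, at 0.059 and at -0.20, the lower one with 4 of 6 arrays above 0 and -1.30 in mutant 7. Red blood cell genes were below 0 in 7 of 8 probes, with a median of -0.25, and array means from -0.36 to -0.076. In that list 4 of 8 probes had an unadjusted p under 0.05 in limma, all below 0, beside 3.93% of all probes. They were Hbb-bh1 at -0.36, with an unadjusted p of 0.0148 in limma, and Hbb-y at -0.42, with an unadjusted p of 0.0315 in limma. The others, named after their values were seen, were Alas2 at -0.24 and 1 of the 2 probes of Hba-x at -0.29, with unadjusted p-values in limma of 0.0433 and 0.0442. The 8 probes were not all separate readings. Hba-a1 and the other Hba-x probe, also named after their values were seen, had nearly equal ratios except in mutant 4, at -0.59 and -0.075. The part of cell composition in the ratios of the Notch genes was not tested.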

How the data were processed

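The deposited values were log2 ratios of 2 channels per probe from 6 arrays, with no background or normalization step stated in the sources used here; values at the ceiling of 16.61 and "null" entries were treated as missing (590 ceiling values). Per the labels, each array carried 1 mutant and 1 wild-type cortex, and ratios were turned to mutant over wild type by dye and centred on the median of each array's probes, without 232 control spots. Symbols came from the platform annotation, in which 16632 probes have 1 symbol.

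Probes with at least 4 values, and at least 2 in each dye orientation, were fitted in limma 3.58.1 (R 4.3.3, statmod 1.5.0) with a genotype and a dye term and the wild-type cortex as a random block (correlation 0.246). P-values are two-sided and Benjamini-Hochberg adjusted over 17476 probes, with a threshold of 0.05. The fit was tested on simulated data. Replicates were single embryos. The members and lists were chosen with earlier results of these data known. The named genes outside the members are, in the wider list, the 5 in each direction with the smallest p and any with the same sign on every array, and in each other list the 2 with the smallest p. Alternatives covered block, dye, centring, filter, moderation and left-out arrays.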

Additional observations from a re-analysis of the deposited data

Results flagged for a closer look

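Sets of 6 ratios were searched for 1 array far from the other 5, over 39 sets in all, which were the members, their means by role and the other named genes. Chance gives such a value in about 1 in 20 sets, and 3 sets had one. The Tle4 probe with the lower fit had its lowest ratio, -4.435, in mutant 3. Neurod4 had its lowest ratio, -2.04, in mutant 7. A probe of Kl had its lowest ratio, -1.30, also in mutant 7. No probe of the 10 Notch pathway genes was among them.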

How the results depend on the processing

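No member and no other probe passed the adjusted threshold in limma under any of the 25 alternatives, the smallest adjusted p of a member being 0.295, with centring on Gapdh control spots. The count of members with an unadjusted p under 0.05 was 2 instead of 0 (Notch1 and Jag1) with that centring. The median of the members was then 0.30, and 0.29 with no centring, where the median of all probes was itself 0.26 in both. The count of wider-list probes with an unadjusted p under 0.05 was 0 in the reported fit. It was 1 without the block, with array 1 as a wild type of its own, without the dye term, with values required on all 6 arrays, and without the 2 arrays of wild type 2, 8 or 9. It was 2 without moderation and in either dye orientation alone, 8 with Gapdh centring, and from 0 to 1 when 1 array was left out.

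Of the members' values under these alternatives, 222 kept the sign of the reported fit and 28 did not. Dll1, Hes1, Hes5 and Hey1 stood at 0.16, 0.20, 0.26 and 0.085 with Gapdh centring and at 0.15, 0.19, 0.25 and 0.077 with no centring. In the Cy3-labelled mutants alone Dll3 was -0.012, Hes1 0.024, Hes5 0.10 and Jag1 -0.10, and in the Cy5-labelled mutants alone Notch1 was -0.013 and Notch2 -0.015. Without the arrays of wild type 8, an alternative chosen after seeing the data, Dll1 was 0.012, Dll3 -0.025, Hes1 0.028, Hes5 0.063 and Rbpj -0.11. Without those of wild type 2 Notch3 was -0.066, and with array 1 as its own wild type Hes5 was 0.011. Leaving out 1 array gave ranges of -0.020 to 0.12 for Notch3, -0.016 to 0.094 for Dll3, -0.068 to 0.061 for Hes5 and -0.012 to 0.18 for Rbpj. The cause was not tested. Each array holds a mutant and a wild type, so its ratios already pair the 2 samples, and the arrays form 1 group.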

Other observations

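The pattern of Hey1 over the 6 arrays, as the member with the smallest p, was closest to that of 1700052K11Rik (r = 0.978), Gngt2 (r = 0.977) and Tmem184c (r = 0.970) among 10955 probes. This is a description over 6 arrays that share wild-type cortices. The sizes differed, with 1700052K11Rik between -1.35 and 2.08 over the arrays and Gngt2 between -0.048 and 0.12.

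Among the 45 pairs of members, 20 had a positive correlation over the same arrays, with a median of -0.13. The highest was that of Notch3 and Dll1 (r = 0.93), followed by Notch2 and Hes5 (r = 0.86), and the lowest that of Notch3 and Rbpj (r = -0.89). Notch3 and Dll1 were both lowest against wild type 8, where Rbpj was highest.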
